A study of Mus musculus with 5 samples.

Results

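The Slit and Robo genes examined here were the 3 ligand genes Slit1, Slit2 and Slit3 and the 2 receptor genes Robo1 and Robo2, 5 of 21887 mouse protein-coding genes. Every called peak that overlapped the body of one of them or the 100 kb either side was taken, which gave 55 of the 71757 peaks in 4 lists. H3K27ac, the acetylation of lysine 27 of histone H3 that marks active promoters and enhancers, was profiled in untransduced mouse neural stem cells (NSC) and in untransduced mouse brain tumour stem cells (BTSC). TLX, an orphan nuclear receptor of neural stem cells, was precipitated through a TY1 tag from NSC and from BTSC that carried retroviral TLX-3xTY1, so its lists describe the added, tagged protein. A control without antibody, from cells transduced with the empty vector MSCV-neo, completes the 5 samples of the series; its signal was not analysed here. The growth protocol, the same text for every sample, speaks of primary NSC selected by drug for the transgene and does not describe the BTSC. Strain, age, tumour model and the number of clones or cultures were not stated in the sources used here, and a TY1 precipitation from untagged cells was not analysed here.

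Slit proteins are large secreted ligands that bind Robo receptors, single-pass membrane proteins of the immunoglobulin superfamily. The pathway is best known for repelling axons from the midline of the nervous system, and in the forebrain Slits made by the septum and choroid plexus direct migrating neuroblasts. Robo receptors act inside the cell through adaptors and GTPase-activating proteins that restrain actin growth.

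With 1 library per group no value below has a replicate error, and no test between cultures was possible. The NSC lists held 7458 TLX peaks and 31266 H3K27ac peaks, and the BTSC lists 1436 and 31597. The sources used here do not give read depth, so a gene without a peak is one at which none was called, not one shown to lack the mark. In bulk chromatin, fewer cells carrying a mark and less of the mark per cell cannot be told apart. Of 10 neural stem cell markers, 8 had H3K27ac within 1 kb of a gene end in both cultures, Sox2, Nes and Vim among them. Msi1 and Pax6 had none there in either list. Markers of microglia (0 of 6) and endothelium (0 of 5) had none in either list, and those of neurons had 3 of 5 in NSC (Syt1, Tubb3 and Dcx) and 1 of 5 in BTSC (Tubb3). The part of neuron-like cells in the results below was not tested.

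Acetylation at a listed start, as deposited, separated 4 of the 5 members into 3 kinds. The sequences before those starts are shown for that reason. The RefSeq promoter table (GRCm38.p6, the assembly of mm10) listed 6 starts for 4 of the 5 genes. Slit1 had no entry. Robo1 and Slit2 had H3K27ac over the listed start in NSC only, Robo2 had it in both cultures over 1 of its 3 starts, the one at 74411825, and Slit3 had it in neither. The Slit2 peak was weak, with a −log10 q of 4.78 against 51.8 at Robo1. With a −log10 q of at least 5 Slit2, like Slit3, had no H3K27ac over its start in either list. The 250 bases before each of these starts follow, 5′ to 3′ on the gene's strand, with CpG dinucleotides, the sites of DNA methylation in mammals, in capitals.
Robo1, chr16:72662899-72663148, plus strand: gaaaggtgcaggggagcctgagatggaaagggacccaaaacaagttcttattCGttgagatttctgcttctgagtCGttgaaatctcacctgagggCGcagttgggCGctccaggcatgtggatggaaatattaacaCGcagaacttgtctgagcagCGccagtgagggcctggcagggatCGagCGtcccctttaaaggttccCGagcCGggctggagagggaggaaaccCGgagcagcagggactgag
Slit2, chr5:47982905-47983154, plus strand: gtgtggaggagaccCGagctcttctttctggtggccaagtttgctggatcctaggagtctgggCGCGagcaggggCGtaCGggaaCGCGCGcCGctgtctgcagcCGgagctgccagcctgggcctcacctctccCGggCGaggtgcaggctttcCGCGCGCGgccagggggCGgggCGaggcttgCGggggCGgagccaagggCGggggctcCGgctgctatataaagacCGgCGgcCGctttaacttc
Robo2, chr16:74411826-74412075, minus strand: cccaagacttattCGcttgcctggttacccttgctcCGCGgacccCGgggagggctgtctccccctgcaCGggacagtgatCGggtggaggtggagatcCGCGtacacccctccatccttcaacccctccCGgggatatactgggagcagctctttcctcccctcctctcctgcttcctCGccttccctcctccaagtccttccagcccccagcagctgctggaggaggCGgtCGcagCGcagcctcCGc
Slit3, chr11:35121206-35121455, plus strand: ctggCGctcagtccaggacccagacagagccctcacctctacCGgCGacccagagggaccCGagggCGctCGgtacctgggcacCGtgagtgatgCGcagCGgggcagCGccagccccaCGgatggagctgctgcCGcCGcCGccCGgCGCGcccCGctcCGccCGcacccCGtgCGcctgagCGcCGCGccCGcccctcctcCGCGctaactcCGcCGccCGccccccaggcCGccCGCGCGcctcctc

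These promoters differed in CpG number without following their acetylation. Over the 300 bases of a table entry (250 before to 50 after the start), Slit3 had 41 CpG, Slit2 had 30, Robo2 had 17 and Robo1 had 15, against a median of 7 over 32851 promoters. Slit3, the richest, was the one without H3K27ac in either culture as deposited. The other starts of Robo2, at 75447293 and 75092770, had 9 and 5 CpG and no H3K27ac in either list. The motif AAGTCA, the core recognised by TLX, was in none of the 6 windows on either strand, while 15.1% of all promoters held it. TATAAA, searched on both strands after the Slit2 sequence had been seen, was in the Slit2 window alone of the 6, 28 bases before the start, and in 13.6% of all promoters.

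**Figure D1:**
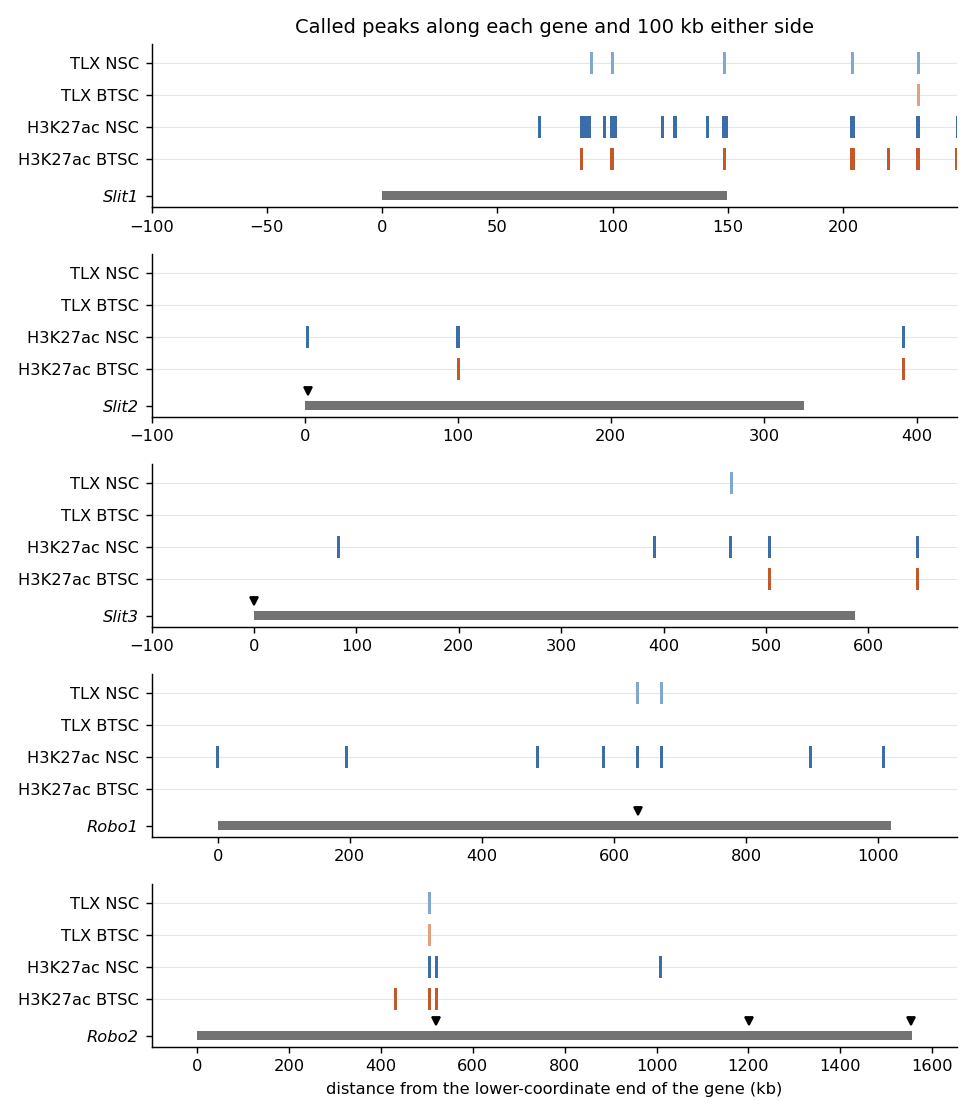
Called peaks along each gene and the 100 kb either side; the x axis is distance from the lower-coordinate end of the gene in kb, grey bars are gene bodies, triangles are starts listed by RefSeq, and peaks are drawn at no less than a minimum visible width. The H3K27ac row of BTSC is empty over Robo1, where NSC has 8 peaks, and Robo2 has a TLX peak in both cultures at the same place.

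Slit1, on chromosome 19 from 41597824 to 41747275, was the most acetylated member per length in both cultures. H3K27ac covered 5.87% of its window in NSC (20502 bp) and 2.44% in BTSC (8543 bp). The same shares were 0.606% and 0.354% at Slit2, 1.1% and 0.489% at Slit3, 0.637% and 0% at Robo1, and 0.304% and 0.29% at Robo2. The difference lay inside the gene. In the body, 8 NSC peaks spanned 15818 bp and 3 BTSC peaks spanned 2964 bp, 5.34 times less, while the flanks had 4684 and 5579 bp.

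The peak at the upper-coordinate end of Slit1 (41745195 to 41747577 in NSC) had a fold enrichment, the authors' own value for each peak, of 9.64 in the NSC list and 4.46 in the BTSC list, where it was also narrower (2383 and 1453 bp). That end overlaps the long noncoding RNA gene Gm19424, and the lists do not separate the 2 genes. The widest region of the body was 5057 bp in NSC (41683486 to 41688542), of which a 1026 bp peak was called in BTSC. A region of 3250 bp (41696512 to 41699761) came down to 485 bp, and 5 further NSC peaks of 626 to 1345 bp had no BTSC partner. So 3 of the 8 body regions were called in both cultures, each of them narrower in BTSC.

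Neighbouring genes on the same side of Slit1 did not share this. The peak at an end of Arhgap19, a GTPase-activating protein of cell division, was 1975 bp wide with a fold of 15.5 in NSC and 1972 bp wide with a fold of 14.0 in BTSC. At Frat1, a Wnt pathway protein, the values were 1714 bp with a fold of 13.1 and 1909 bp with a fold of 19.8, and at Frat2 2367 bp with a fold of 14.7 and 2827 bp with a fold of 18.6. These 3 peaks had nearly the same width in both lists, or a greater one in BTSC, within 100 kb of a gene body with less called acetylation there.

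Slit2, on chromosome 5 from 47981291 to 48307735, carried little H3K27ac in either culture and no TLX. It is the ligand best studied in tumours, where its promoter is often methylated. Its start was covered in NSC by a peak of 526 bp (47983153 to 47983678) with a fold of 3.50, and no peak was called there in BTSC. A second site (48080555 to 48082402 in NSC), centred 98323 bp downstream of the listed start, was 1848 bp wide with a fold of 4.49, and 1046 bp wide with a fold of 2.69 in BTSC. The peak at the neighbour Pacrgl was 818 bp wide in NSC and 817 bp wide in BTSC. The whole window had 3192 and 1863 bp; with only peaks of a −log10 q of at least 5 these were 2666 and 817 bp, all 817 of them at Pacrgl.

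Slit3, on chromosome 11 from 35121456 to 35708507, had its acetylation deep in the gene rather than at its start. Of 4 body peaks in NSC, 1 was called in BTSC, at 35624203 to 35625534 in NSC, with folds of 3.67 and 3.83 and widths of 1332 and 1248 bp. The 3 peaks of the NSC list alone, 1771, 1605 and 1121 bp wide, were weaker, with folds of 2.45, 2.78 and 3.10. The neighbour Pank3, a pantothenate kinase of coenzyme A synthesis, had folds of 19.3 and 19.2. Body coverage was 5829 and 1248 bp. Among peaks of a −log10 q of at least 5 the window held 4192 and 3846 bp, a ratio of 0.917. Of these lengths 2860 and 2598 bp lay at Pank3, and the rest was the body peak called in both cultures. The difference at Slit3 thus rested on peaks near the calling threshold.

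Slit2 and Slit3 each hold a copy of the microRNA gene of miR-218, which is known to target Robo mRNAs. The mature 5′ arms of the 2 copies are the same and the 3′ arms differ, as shown here with the seed (bases 2 to 8) in capitals, from RefSeq GRCm38.p6.
miR-218-5p of Mir218-1 and Mir218-2: uUGUGCUUgaucuaaccaugu
miR-218-1-3p: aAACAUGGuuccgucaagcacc
miR-218-2-3p: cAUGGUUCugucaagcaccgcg

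Mir218-2, at 35616816 to 35616925 on chromosome 11, lay 7278 bp from the Slit3 peak that both cultures shared, and 29068 bp from the TLX peak of NSC described below. Mir218-1, at 48223942 to 48224051 on chromosome 5, had no H3K27ac peak nearer than 141540 bp in NSC or 141791 bp in BTSC. Of the 2 copies, the one in Slit3 thus had the nearer acetylated region in both lists.

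Robo1 was the member with the plainest difference: 8 H3K27ac peaks covering 7767 bp in NSC and 0 peaks in BTSC. The gene lies on chromosome 16 from 72027518 to 73047491 and encodes a Slit receptor of growing axons and migrating neurons. The peak over its listed start (72662617 to 72664305, 1689 bp) had a fold of 11.8 and a −log10 q of 51.8 in the NSC list. It stood in decile 2 of that list by q, where 99.6% of peaks had a BTSC partner and 14 of 3127 had none. Among the 6579 NSC H3K27ac peaks without a BTSC partner it ranked 13 by q. The noncoding gene Gm29908 ends next to this start, and the lists do not assign the peak to either gene.

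The other 7 Robo1 peaks of NSC were weaker, with folds from 2.44 to 3.57, and the widest of them was 1468 bp (73035321 to 73036788). One of them (72027717 to 72028273, fold 2.44) lay just inside the lower end of the gene body, and another (72699639 to 72700330, fold 2.89) 36835 bp downstream of the listed start under a TLX peak. With a −log10 q of at least 5, 2 Robo1 peaks covering 2330 bp remained in NSC against 0 in BTSC. Chromosome 16 as a whole had 1057 H3K27ac peaks in NSC and 1082 in BTSC, with 1.08 times the covered length in BTSC, the same as over all chromosomes (1.08). The stretch around Robo1 without called H3K27ac in BTSC was 3.11 Mb long. It held 0 TLX peaks of BTSC too, but that list had only 48 on the whole of chromosome 16, so this 0 says little. DNA copy number in the stretch was not tested, so less of the mark and less DNA in BTSC cannot be told apart.

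Robo2, on the same chromosome from 73891976 to 75447443, kept its acetylation in BTSC. This receptor is the partner of Robo1 in many guidance decisions. Its covered length was 5334 bp in NSC against 5090 in BTSC, 1.05 times more in NSC. The region over the start at 74411825 was 2443 bp wide with a fold of 6.72 in NSC (74410683 to 74413125), and 1700 bp wide with a fold of 6.21 in BTSC. A second region about 14 kb further into the gene (74396313 to 74398632 in NSC) was 2320 bp wide with a fold of 6.02, and 2574 bp wide with a fold of 5.70 in BTSC. Each list also held 1 peak of its own. That of NSC (74900719 to 74901289) was 571 bp wide with a fold of 2.58, and that of BTSC (74322470 to 74323285) was 816 bp wide with a fold of 3.93, the only one of the pair with a −log10 q of at least 5. Both shared regions lay around the most downstream of the 3 listed starts.

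**Figure D2:**
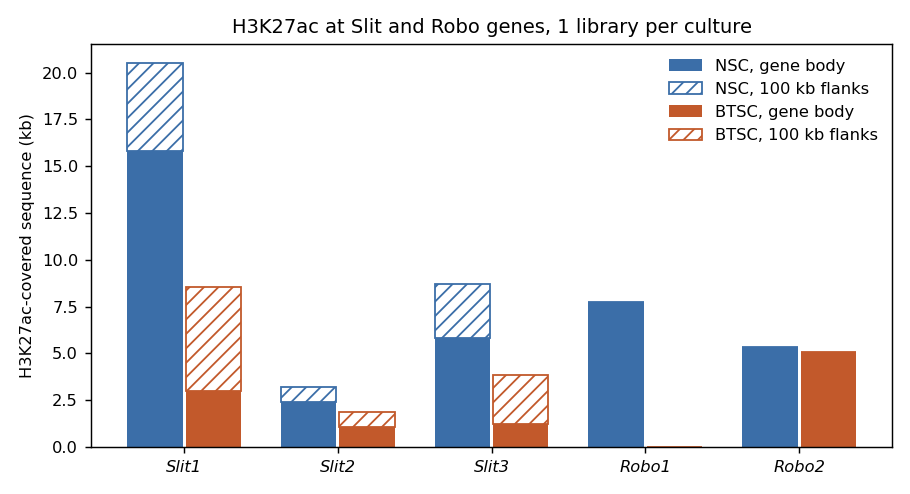
H3K27ac-covered sequence (kb) of each member in NSC (blue) and BTSC (orange), in the gene body (solid) and the 100 kb either side (hatched), 1 library each. The solid bars are shorter in BTSC at Slit1, Slit2, Slit3 and Robo1 and about level at Robo2 (5334 and 5090 bp), while the hatched bars are close to each other.

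TLX peaks in NSC were found at 4 of the 5 genes, all but Slit2, and in BTSC at 2. In the same window, 55.5% of all genes that code for protein held TLX of NSC and 16.1% TLX of BTSC; among the 1466 genes at least as long as Slit1 (149.5 kb), these shares were 68.1% and 22.9%, so the members' counts are near those of long genes. With the NSC list shortened by q to the 1436 peaks of the BTSC list, 3 of the 9 NSC peaks were left, 1 each in Robo2, Slit3 and Robo1. The strongest site was in Robo2 at 74397208 to 74397965, which ranked 329 of 7458 by q in the NSC list with a fold of 9.43, and 616 of 1436 in the BTSC list (74397370 to 74397898) with a fold of 5.43. It lay 14143 bp downstream of the start at 74411825, inside the second shared H3K27ac region of that gene. It was the only TLX site inside a member's body that was called in both cultures.

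Slit3 and Robo1 had TLX sites of NSC with no counterpart in BTSC. The Slit3 site (35587059 to 35587748) ranked 993 with a fold of 7.27, 465852 bp downstream of the start. The stronger Robo1 site (72699385 to 72700038) ranked 1328 with a fold of 6.69, 36567 bp downstream of the listed start. In the decile of the NSC list that holds these 2 peaks, 30.8% of TLX peaks had a BTSC partner. A weaker Robo1 site (72663393 to 72664032, fold 4.21) had its summit 633 bp downstream of that start. In NSC both Robo1 sites and the Slit3 site overlapped H3K27ac, and in BTSC none of the 3 places had H3K27ac or TLX.

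Slit1 had 3 TLX peaks in its body in NSC and 0 in BTSC. They lay at 41688229 to 41688754, 41697205 to 41697803 and 41745979 to 41746550, with folds of 4.68, 4.21 and 4.97. The last was 1011 bp inside the upper end. In deciles 5 and 8 of the NSC list by q, which hold these 3 peaks, 12.1% and 5.09% of TLX peaks had a BTSC partner. A lack of partners is thus usual for peaks of this strength. The remaining peaks of the Slit1 window were at Arhgap19 (NSC only, fold 4.02) and at Frat1, where TLX was called in both cultures with folds of 4.97 and 4.35. The BTSC count of 2 therefore held 1 peak at Robo2 and 1 at a neighbour of Slit1.

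At these genes 4 of the 9 TLX sites of NSC had no called H3K27ac in BTSC. All 9 NSC TLX peaks overlapped H3K27ac of NSC (91.6% of all NSC TLX peaks did). With a −log10 q of at least 5 in both lists 7 of 9 did (84.3% of all), since the H3K27ac peaks at the Slit3 site and the stronger Robo1 site were weaker than that. As deposited, 5 of 9 overlapped H3K27ac of BTSC (55.6%, exact Clopper-Pearson 95% interval 21.2 to 86.3, counting error only), against 88.1% of the whole list. Both BTSC TLX peaks overlapped H3K27ac of BTSC, as did 93.2% of that list. TLX overlap between the cultures was closer to that of the lists: 2 of 9 NSC peaks had a BTSC partner against 15.8% of the list, and 2 of 2 BTSC peaks had an NSC partner against 81.8%. With 9 peaks these shares are coarse.

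Among all 30 H3K27ac peaks of the members in NSC, 12 had a partner in BTSC, which is 40% (22.7 to 59.4) against 79% of the whole NSC list. All 8 Robo1 peaks were without a partner and lay in the same stretch empty in BTSC. Peaks of a gene are thus not independent, and the intervals here leave this out. Weak peaks are shared less often, and the members' peaks were weaker than the list (median fold 3.59 against 4.53). Peaks of the same deciles of the list by q had a partner in 74.5% of cases, which would give 22.3 of 30. With a −log10 q of at least 5 in both lists the members had 16 NSC peaks, of which 56.2% had a partner against 82.9% of all NSC peaks at that threshold, and 10 BTSC peaks. In the bodies 7 of 25 peaks had a partner (28%, 12.1 to 49.4; 69.6% in the same deciles). In the flanks, where peaks were stronger, 5 of 5 had one (98.9% in the same deciles). In the other direction 12 of 14 BTSC peaks overlapped an NSC peak, 85.7% (57.2 to 98.2), against 76.8% of the BTSC list. The members thus had few H3K27ac peaks of BTSC, and 2 of these were called in BTSC alone, 1 in Robo2 and 1 in the flank of Slit1.

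**Figure D3:**
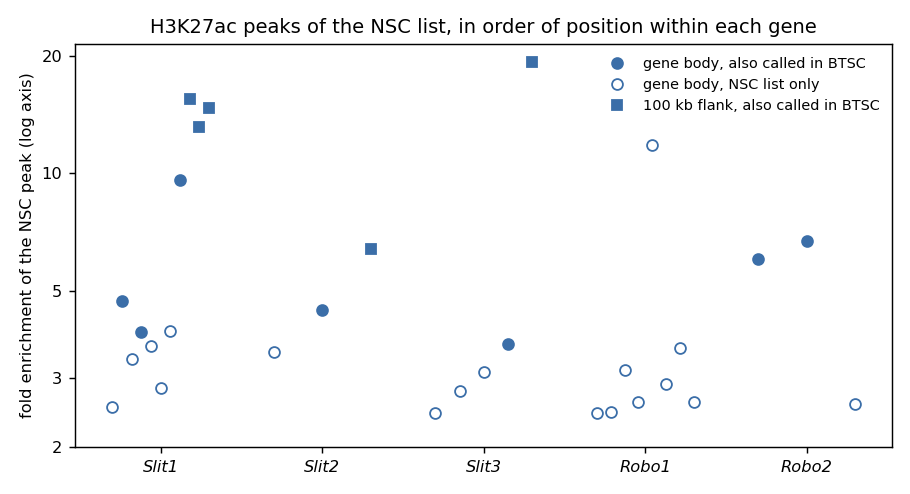
Fold enrichment (log axis) of the 30 H3K27ac peaks of the NSC list at the members, in order of position within each gene; filled symbols were also called in BTSC and open symbols were not, circles are in gene bodies and squares in the flanks. The open circle at 11.8 is the peak over the Robo1 start, and the other open circles are at a fold of 4.0 or less.

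Set against other genes, 4 of 5 members had H3K27ac coverage at least 1.5 times lower in BTSC and 0 had it higher. With a −log10 q of at least 5 it was 3 of 5, without Slit3, against 18.8% of long genes. Of the 17260 protein-coding genes with 2000 bp or more in a list, 10.8% were lower by that rule and 18% were higher. Among the 1301 long genes that met the minimum, 20.2% were lower and 20.8% higher, and their median ratio of BTSC to NSC was 1.04. The ratios were 0.417 at Slit1, 0.584 at Slit2, 0.443 at Slit3, 0 at Robo1 and 0.954 at Robo2. Counted in bodies alone they were 0.187, 0.441, 0.214, 0 and 0.954; in long genes 25.1% were then lower and 25.4% higher. Relative to the rest of each gene's chromosome the ratios were 0.39, 0.517, 0.407, 0 and 0.883.

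Any H3K27ac at all was common in these windows: all 5 members had some in NSC (83.3% of all genes, 93.9% of long genes) and 4 had some in BTSC (82.3% and 91.3%). Robo1 was the exception. Of genes with 2000 bp or more in NSC, 0.726% had 0 bp in BTSC, and 1.59% of long ones, 20 of 1254. By length covered in NSC, Robo1 was 4 in order among those 20, after Btbd11, Dpp10 and Csmd3. Slit1 had more covered sequence than 74.4% of long genes in NSC and than 46% in BTSC, while Robo2 was at 32.2% and 30.7%.

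**Figure D4:**
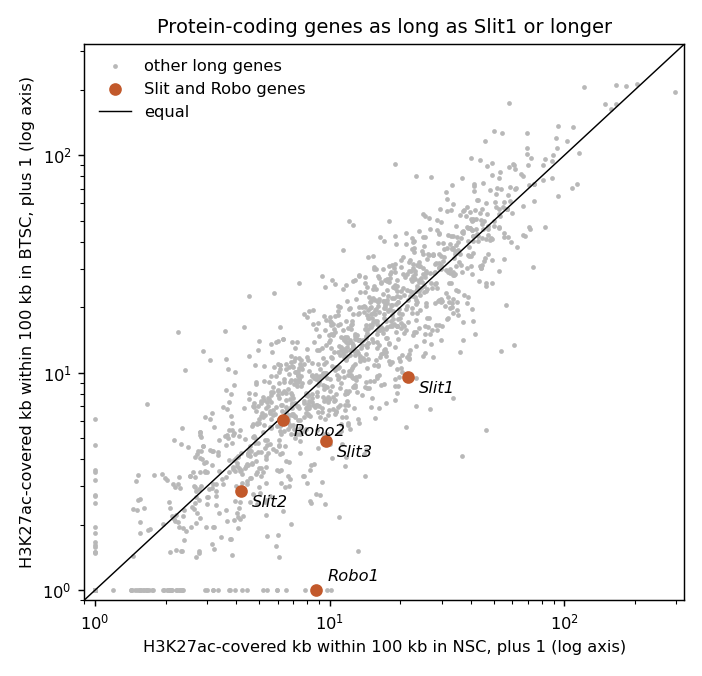
H3K27ac-covered sequence within 100 kb (kb plus 1, log axes) in NSC and BTSC for the 1466 protein-coding genes at least as long as Slit1, with the members in orange and the line of equal values. Robo1 lies on the lower edge (7767 and 0 bp), Slit1, Slit2 and Slit3 lie below the line, and Robo2 lies on it.

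Genes of the most similar pattern were sought among long genes over 4 values, the numbers of TLX peaks and the covered H3K27ac in either culture, as a Euclidean distance on a log2 scale. For Robo1 the nearest was Cntn6 (distance 0.0303), a neural adhesion gene with 2 TLX peaks in NSC, 0 in BTSC, and 7585 and 0 bp of H3K27ac, then Btbd11 (0.205), which had 9104 and 0 bp. Cntn6 is on chromosome 6, where BTSC had 0.789 times the covered H3K27ac and 0.0975 times the TLX peaks of NSC. Over all chromosomes these ratios were 1.08 and 0.193. For Slit2 the nearest genes were Tmc1 and Col22a1, for Slit3 Neb and Adamts3, for Slit1 Agbl4 and Rbms3, and for Robo2 Fbxl17. No member was among the 2 nearest genes of another; the closest members were Slit3 and Robo2, at 1.22.

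The other genes of the pathway, 35 in a list, did not share one direction. H3K27ac coverage was at least 1.5 times lower in BTSC for 6 of the 34 that met the minimum and higher for 8. Of all genes that met it, 10.8% were lower and 18% higher. Both counts lie above those shares, and with 34 genes they are coarse. Cxcl12 had none in either list. The 7 receptors and partners held 4 of the 6 lower genes, a coarse count in so small a group. Of the 4, Dcc and Dscam are long genes, among which 20.2% were lower. Dcc, the netrin receptor that Robo1 can silence at the midline, had 22284 bp in NSC and 6026 bp in BTSC; it also had 2 TLX peaks within 10 kb in NSC and 0 in BTSC. Dscam, an adhesion receptor, had 70382 and 44658 bp, Plxna1, a plexin that also binds Slit fragments, 15572 and 8913 bp, and Flrt3, a coreceptor of Robo1, 4742 and 1285 bp. Cxcr4, a chemokine receptor of migrating cells whose signalling Slits dampen, was higher, with 7129 and 11766 bp. Robo3 and Robo4, which are neighbours and share most of their window, had 22627 bp each in NSC and 27136 and 26269 bp in BTSC, none of it within 1 kb of their ends.

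Of the 17 intracellular genes 5 were higher in BTSC and 1 was lower, 2 of the 5 on chromosome 1. Of all genes that met the minimum 18% were higher and 10.8% lower, and with 17 and 8 genes in a group the counts here are coarse. Srgap2, a GTPase-activating protein that binds Robo1, had 39039 bp against 96277 bp in BTSC. The GTPase genes Rac1 (9463 and 22403 bp) and Cdc42 (5327 and 9287 bp), the kinase gene Abl1 (13797 and 25116 bp) and the actin regulator gene Enah (19315 and 33248 bp) were also higher, and the kinase gene Pak1 was lower (7303 and 2463 bp). Of the 8 Slit-binding and heparan sulfate genes 2 were higher, Sdc1 (4657 and 7358 bp) and Hs6st1 (6087 and 15002 bp), and of other ligands Nell2, which binds Robo3, was lower (18958 and 10298 bp). Srgap2, Enah, Cxcr4 and Hs6st1 are on chromosome 1, where BTSC had 1.66 times the covered length of NSC, and Plxna1 is on chromosome 6, where it had 0.789 times. Outside these chromosomes 5 pathway genes were lower and 4 higher. The part of chromosome-wide signal in these values was not tested.

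At gene ends the pathway was mostly acetylated in both cultures. H3K27ac lay within 1 kb of an end in both lists for 28 of 35 genes (49.6% of all genes), in the NSC list only for Dcc (2.62%) and in the BTSC list only for Enah (2.09%). Of the members, Slit1 had it in both lists and Robo1 in the NSC list only, through the weak peak at the lower end of its body (fold 2.44). Slit2, Slit3 and Robo2 had it in neither. The listed starts of Slit2, Robo1 and Robo2 with H3K27ac lie further inside. TLX lay within 10 kb of 19 of the 35 genes in NSC (24.8% of all genes) and of 6 in BTSC (5.12%), each of the 6 also in NSC. Those 6 were Sdc2, Sdc3, Srgap2, Arhgap39, Rac1 and Ntn1, the last encoding netrin-1, the ligand of Dcc. In the NSC list only, TLX was near Dcc, Dscam, Plxna1, Gpc1, Sdc1, Ext1, Hs2st1, Srgap1, Srgap3, Nck1, Nck2, Rhoa and Nell2. By the same distance 4 of the 5 members had TLX in NSC and 1, Robo2, in BTSC. Even Slit1, the shortest member, is longer than 93.3% of coding genes, and a long gene has a long window. The pathway list also holds long genes with TLX, such as Dcc (1097.6 kb) and Dscam (583.7 kb). The share among long genes was not computed at this distance. The TLX counts of the members and of the 35 pathway genes thus cannot be read against the shares of all genes.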

How the data were processed

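Chromatin immunoprecipitation with paired-end sequencing gave 4 peak lists, 1 library each, in mm10. Per the submitters' processing notes the tools were bcl2fastq 2.17.1.14, Bowtie and ChIPseeker; no source used here names the peak caller, its settings, the use of the control or the depth. For each peak the authors deposited a fold ratio and its p-value and q-value as −log10; the deposited score was not used. These values were used within a list, and are set side by side without a test.

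Genes, starts and sequences came from RefSeq tables of GRCm38.p6; exons, introns and UTRs are not distinguished. Peaks were counted where they overlapped a gene or the 100 kb either side by 1 bp, and covered bp were clipped to that window. A gene was called lower or higher in BTSC at 1.5 times, with 2000 bp or more in a list. Shares have exact Clopper-Pearson 95% intervals (counting error only). Python 3.11.15, pandas 2.3.3, NumPy 2.4.6 and SciPy 1.17.1 were used, and overlap code was tested on simulated intervals.

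All 5 members were named, with every TLX peak, H3K27ac peaks over starts, the widest ones and those holding TLX, pathway genes with TLX within 10 kb or H3K27ac at an end in 1 list only, and the 2 most similar long genes per member. One similar gene and one list of cell type markers are not reported here. Pathway genes called lower or higher, and neighbours, were named after their values were seen. Members and lists were chosen with earlier results of these data known. Alternatives were a −log10 q of at least 5, a window of 25 kb, the body alone, peaks nearest to the member, joining within 1 kb, equal numbers of peaks, overlap of 50% of the shorter peak, and scaling by chromosome.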

Additional observations from a re-analysis of the deposited data

How the results depend on the processing

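The statements above rest on 1 library per group at unknown depth, so a count can change with the threshold of the caller. Of 42 alternative values for the counts, covered lengths and shares over all members, 30 stayed within 1.5 times of the value given (for shares, within its interval) and 12 did not. With a −log10 q of at least 5, H3K27ac peaks were 16 in NSC and 10 in BTSC and TLX peaks 9 in NSC and 1 in BTSC. With a window of 25 kb, the gene body alone, or only peaks nearest to the member, BTSC had 8 H3K27ac peaks covering 10348 bp and 1 TLX peak, while NSC had 25 H3K27ac peaks and 7 TLX peaks under each. With the TLX list of NSC at the length of the BTSC list, the members had 3 TLX peaks in NSC and 2 in BTSC. Joining peaks within 1 kb and an overlap of 50% moved none of them. Of 15 alternative ratios for single genes, 4 moved by over 1.5 times and 0 reversed a call: Slit1 was 0.187 and Slit3 0.214 in the body alone, and with the stricter q Slit2 was 0.306 and Slit3 0.917, which ended the call at Slit3. No paired analysis was possible because each group has 1 library.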

Other observations

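The stretch of chromosome 16 without called H3K27ac in BTSC reached well beyond Robo1. It ran from 70314872, at the end of a peak at Gbe1, to 73424609, a length of 3.11 Mb that ranked 39 among 31571 gaps between neighbouring BTSC peaks. Robo1 was the 1 protein-coding gene wholly inside it. NSC had 11 H3K27ac peaks and 2 TLX peaks wholly inside this stretch, 3 of the H3K27ac peaks outside the Robo1 body with folds of 2.34 to 2.42. BTSC had 0 of either, with only 48 TLX peaks on the whole chromosome. Weak NSC peaks often lack a BTSC partner: in deciles 9 and 10 of the H3K27ac list by q, 53.9% and 43.5% had one. The 3 weak peaks outside the Robo1 body thus say little about a difference beyond the gene. The BTSC peaks on either side had folds of 7.44 (at Gbe1) and 2.61. In NSC the longest stretch without H3K27ac that touches the Robo1 body was 387 kb. DNA copy number was not tested, so a difference in chromatin and one in DNA content of the BTSC culture cannot be told apart here.

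Of the 20 long genes with 2000 bp or more of H3K27ac in NSC and 0 in BTSC, a few are named here, chosen after their values were seen: Efna5, an ephrin ligand (4427 bp in NSC), the Eph receptor genes Epha7 (3213 bp) and Epha3 (2185 bp), the teneurin gene Tenm1 (6867 bp) and the contactin gene Cntn6 (7585 bp). Foxp2, a transcription factor of neurons, had 4196 bp and Brinp1, a gene of postmitotic neurons, 4941 bp. The 20 also hold Cfap20dc (4943 bp), Flt1 (2760 bp) and Itga8 (2716 bp), so the genes named first do not stand for the whole set. Cntn6 and Foxp2 are on chromosome 6, where BTSC had 0.789 times the covered length of NSC. No enrichment was tested.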
